A study of Mus musculus with 4 samples.

Results

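Transcripts of 9 transcription factor genes that mark placode-derived or crest-derived sensory neurons, Phox2a, Prdm12, Prrxl1, Pou4f1, Isl1, Isl2, Runx1, Tbx3 and Etv1, were followed through every cluster of the mouse vagal ganglion complex. The genes were chosen by name, with earlier results of these data known. All 9 were among the 17289 genes of the expression table. The table held 1825 single cells in 27 annotated clusters, of which 18 were nodose (NG1 to NG18, 1459 cells) and 6 jugular (JG1 to JG6, 245 cells). The others were sympathetic neurons (19 cells), satellite glia (51 cells) and endothelial cells (51 cells).

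Ganglia came from mice of 5 weeks. Wild-type C57BL6 animals gave 2 libraries of unselected cells (unsorted 1 and 2, with 270 and 930 cells). Animals with Slc17a6tm2(cre)Lowl and the reporter allele Gt(ROSA)26Sortm14(CAG-tdTomato)Hze, on a B6.Cg background, gave 2 libraries of cells sorted for fluorescence (sorted 1 and 2, with 328 and 297 cells). In the second group Cre is made from the locus of the glutamate transporter Slc17a6, also called Vglut2, so a cell is marked if it uses or has used that gene. Libraries held 16147719 to 30778125 UMIs, the molecule tags that count transcripts, and 1 cell barcode occurred in more than 1 library. Animal numbers per library are absent from the labels, so the p-values below measure the spread between libraries, which may be technical. All levels are UMIs per 10000 UMIs of a cell, averaged within a library and then over libraries, and library values are given in the order unsorted 1, unsorted 2, sorted 1, sorted 2.

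Nodose sensory neurons arise from epibranchial placodes and serve the viscera, whereas jugular neurons arise from the neural crest, like most somatosensory neurons. Homeodomain factors of the paired, POU and LIM classes, a PR domain protein, a Runt factor, a T-box factor and an ETS factor help to set and keep the identity of these neurons during development. The values here describe ganglia long after neurons are born, so they show which of these genes were still transcribed.

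The promoters of the gene with the sharpest jugular pattern, its closest companion among the 9 and the placodal gene Phox2a are shown because the pattern of these genes was opposite. Each is the run of 250 bases that ends just before the start of the gene in the RefSeq table (GRCm38.p6, plus strand). Capitals mark a match to a searched motif. The gene spans given below come from another annotation. In it Prrxl1 starts earlier, at 32599407, so the Prrxl1 run lies inside that span.
Phox2a, chr7:101818063-101818312: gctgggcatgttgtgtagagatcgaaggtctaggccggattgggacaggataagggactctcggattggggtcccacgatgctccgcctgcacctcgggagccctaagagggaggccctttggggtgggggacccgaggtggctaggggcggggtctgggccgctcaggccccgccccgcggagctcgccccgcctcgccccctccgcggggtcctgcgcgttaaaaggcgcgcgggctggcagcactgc
Prdm12, chr2:31639787-31640036: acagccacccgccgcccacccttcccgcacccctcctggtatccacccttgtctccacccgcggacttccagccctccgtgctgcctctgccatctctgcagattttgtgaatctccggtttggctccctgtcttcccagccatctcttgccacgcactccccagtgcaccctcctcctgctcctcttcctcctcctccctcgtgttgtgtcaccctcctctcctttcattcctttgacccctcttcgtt
Prrxl1, chr14:32599677-32599926: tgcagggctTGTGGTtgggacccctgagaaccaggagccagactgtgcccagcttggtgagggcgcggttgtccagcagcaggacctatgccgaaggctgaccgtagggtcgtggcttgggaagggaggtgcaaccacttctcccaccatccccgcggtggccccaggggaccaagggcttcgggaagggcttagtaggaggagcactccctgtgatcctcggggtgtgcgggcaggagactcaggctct
The table matched 8 of the 9 genes with 10 promoters (Tbx3 is named only). Searched on both strands were a motif of paired and LIM homeodomain factors, TAATTA, and its shorter part, TAAT. The motif searched for RUNX factors was TGTGGT. For ETS factors it was CCGGAA. The T-box motif was GGTGTGA. The POU motif was ATGCAAAT. The capitals in the Prrxl1 run are TGTGGT, from 241 to 236 bases before the RefSeq start. Neither of the other 2 runs held any of the 6 motifs. TGTGGT also lay upstream of Etv1, and 14.0% of all 32851 promoters of this length held it. TAAT was found upstream of Etv1, Isl1 and Runx1 (54.9% of all promoters) and CCGGAA upstream of Runx1 (12.0%). None of the 10 held TAATTA (4.84%), GGTGTGA (3.33%) or ATGCAAAT (1.6%). The windows ranged from 44.4% to 78.0% G and C, against a median of 52.4% for all promoters. Such a match describes letters only. The Prdm12 run lies wholly inside an antisense gene, Gm13425, whose transcripts are taken up below.

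Across the sensory neurons, Prdm12, Prrxl1, Pou4f1, Isl2 and Runx1 had the higher level in jugular neurons, and Phox2a, Tbx3, Etv1 and, by a small margin, Isl1 in nodose neurons. Limma called 7 of the 9 genes in the fit of nodose against jugular profiles, 2 higher in nodose (Tbx3 and Etv1) and 5 lower. A call needs an adjusted p under 0.05 and a difference of at least 1 in log2(level + 1). Over all 8833 genes tested, 1.27% were called, 0.589% higher and 0.679% lower in nodose neurons. The library values of the classes did not overlap for 8 of the 9 genes, and for 26.5% of all genes tested. The annotated clusters were drawn from these same transcripts, and the 9 genes were chosen with earlier results of these data known. Their excess over all genes is therefore no test of the set. Folds and calls between the classes describe how evenly 4 libraries carry a difference and are given without p. Median UMIs per cell were 41372 in nodose and 37707 in jugular neurons.

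**Figure D1:**
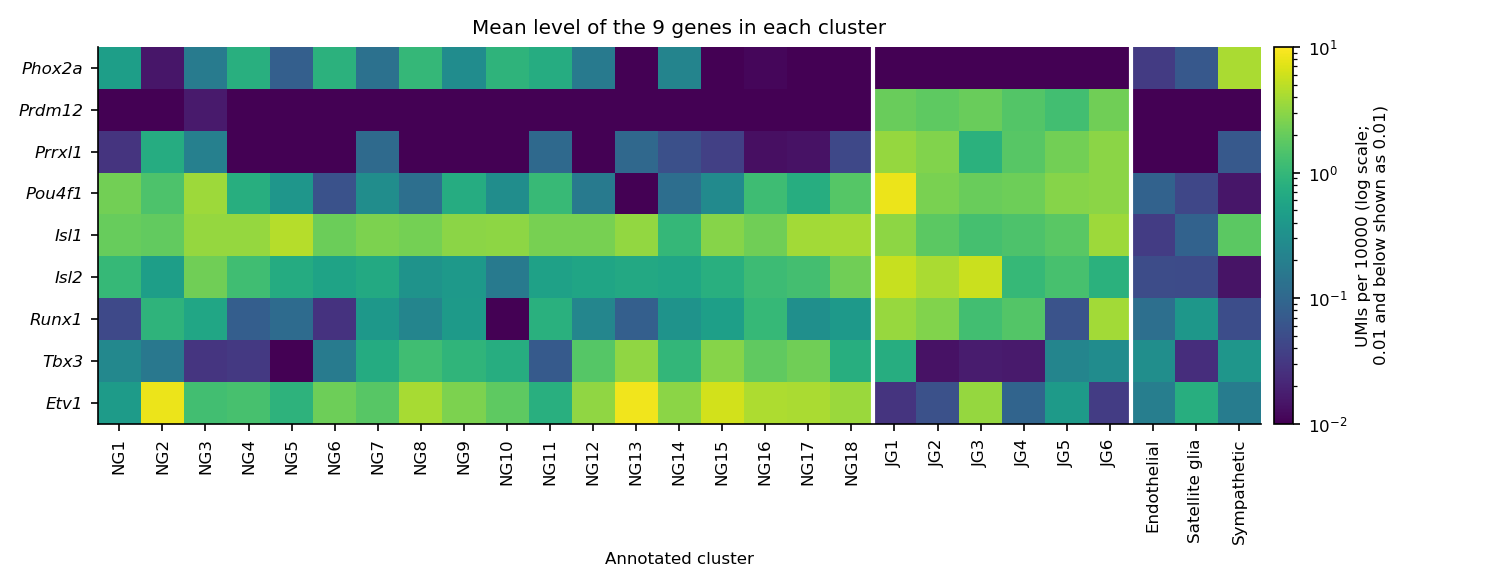
Mean level of each gene (rows) in each annotated cluster (columns, with white lines between nodose, jugular and other clusters), in UMIs per 10000 on a log colour scale, over libraries with at least 5 cells of the cluster. Prdm12 fills the 6 jugular columns and is dark in all nodose columns, while Isl1 is bright in all 24 neuron columns.

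**Figure D2:**
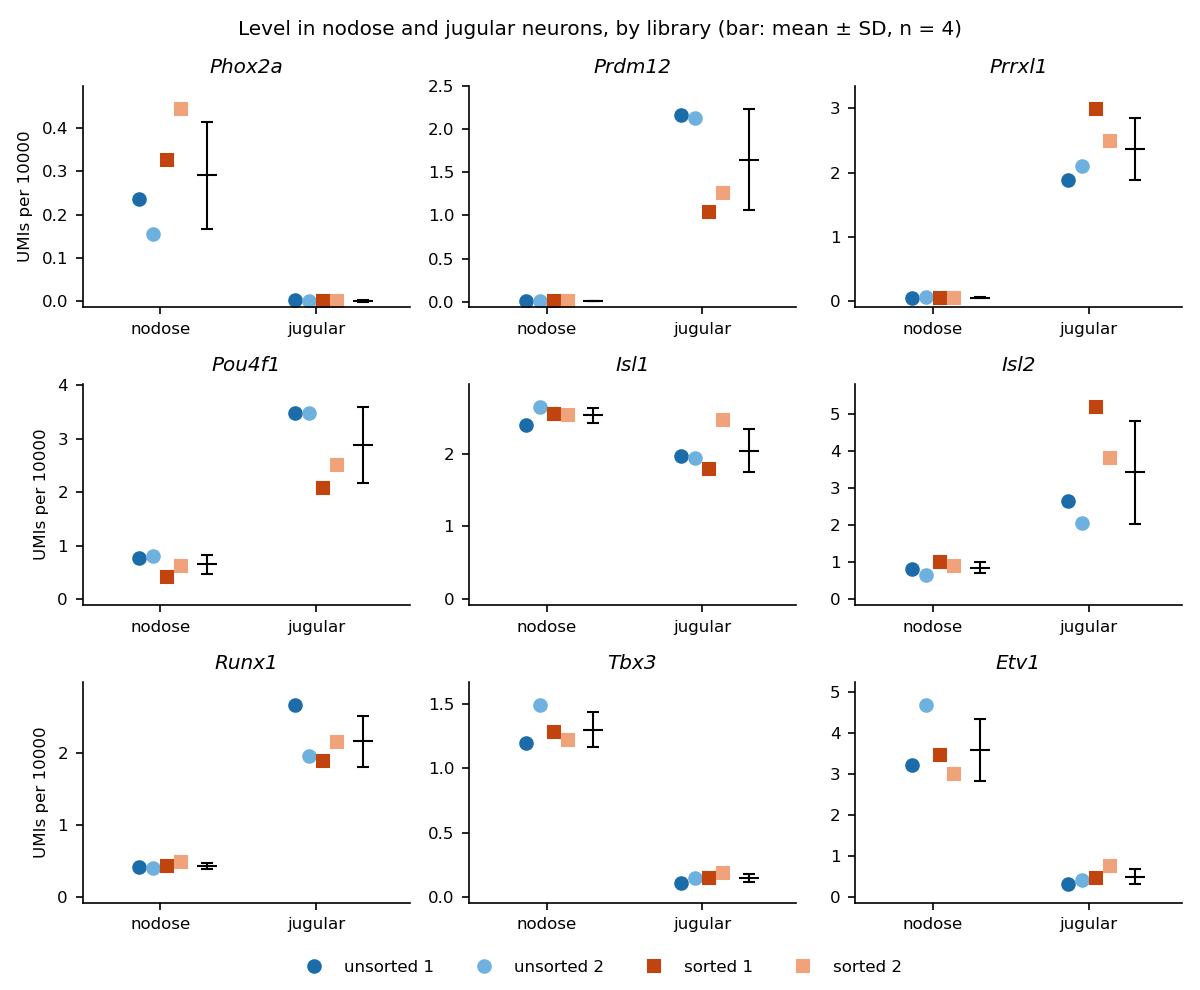
Level of each gene in nodose and jugular neurons, in UMIs per 10000, with 1 point for each library (circles unsorted, squares sorted) and a bar for the mean ± SD of 4 libraries. The classes do not overlap except for Isl1; Prdm12 and Pou4f1 lie lower and Isl2 higher in the sorted than in the unsorted jugular points.

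Phox2a, a paired-type homeodomain factor of visceral sensory and autonomic neurons (chromosome 7, 101818313 to 101822726, plus strand, GRCm38), was found in nodose neurons and almost nowhere in jugular ones. Its nodose levels were 0.237, 0.154, 0.326 and 0.443, and jugular neurons held 1 UMI in all, in unsorted 1, so the classes did not overlap. Per UMI sequenced, the nodose rate was 270-fold the jugular rate (exact 95% interval 48.4 to 10679, for counting error only). The mean log2 difference was 0.36 (SE 0.04), under the threshold. With a pseudocount of 0.1 it was 1.89, and with limma-voom on UMI counts 6.57, and Phox2a was called in both.

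Within the nodose ganglion Phox2a was uneven. UMIs were found in 30.9% of nodose cells (exact Clopper-Pearson 95% interval 28.5 to 33.4) and 0.408% of jugular cells (0.0103 to 2.25), or 17.4% and 0% after each cell was thinned to 10000 UMIs. Endothelial cells, which should lack it, gave 3.92% at a median of 9670 UMIs per cell, and 10.0% (2 of 20 cells, 1.23 to 31.7) at the thinned depth. With 20 cells, the interval of this background is wide and includes the thinned nodose share, so it cannot place that share at matched depth. Thinned jugular neurons, from the same libraries, gave 0%. The highest type was NG8, at 0.985 ± 0.28 (SD, n = 4 libraries) with UMIs in 90.3% of 124 cells. NG10, with 1 library of 5 or more cells, was at 0.894. NG6 (0.838 ± 0.81, n = 2) and NG4 (0.787 ± 0.39, n = 3) came next, then NG11 (0.714 ± 0.22, n = 4) and NG1 (0.481 ± 0.155, n = 3). NG13, NG17 and NG18 were at 0.00668, 0.00217 and 0.00115, a level close to that of the jugular types. Neighbours in this order overlapped in 21 of 23 cases and could not be judged in the other 2, which rest on 1 library. No step between neighbours was larger than the spread of libraries.

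The highest Phox2a of any cluster was in sympathetic neurons, at 5.11 and 3.24 in the 2 unsorted libraries, with UMIs in 18 of 19 cells. These cells also had UMIs of Dbh, Ddc and Slc18a2, genes of catecholamine synthesis and storage, in 19 of 19 cells. Isl1 was the other gene of the 9 that they carried strongly (1.73 ± 0.19, n = 2 libraries, 19 of 19 cells). Prdm12 and Pou4f1 were each found in 1 of the 19 cells. Sorted libraries held 0 sympathetic cells.

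Prdm12, a chromatin regulator that nociceptive neurons need to develop (chromosome 2, 31640037 to 31655795, plus strand), separated the ganglia most sharply. Nodose levels were 0.00624, 0.00402, 0.00279 and 0.00172, and jugular levels 2.17, 2.13, 1.04 and 1.26. The mean of the jugular libraries was 446-fold that of the nodose libraries (log2 difference -1.37, SE 0.10), and both sorted jugular values lay below both unsorted ones. It was found in 95.1% of jugular cells (91.6 to 97.4) and 1.58% of nodose cells (1.0 to 2.36), or 78.6% and 0.555% when thinned. Of the 23 nodose cells with a UMI, 21 had 1 and the highest had 3. It was found in 0 of 51 satellite glia and in none of 51 endothelial cells, each of which allows a share of cells with a UMI of up to 5.88%, at medians of 9930 and 9670 UMIs per cell.

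All 6 jugular types carried Prdm12, from 1.24 ± 0.72 in JG5 (n = 2) to 2.22 ± 0.49 in JG6 (n = 3), and each overlapped the next in order. The step from JG5 to the highest nodose type, NG3 at 0.0165, was the one neighbouring pair whose library values lay apart. Every jugular type stood above every nodose type. Within libraries JG2 lay above JG4 in 4 of 4 (2.52 against 1.64, 2.19 against 1.88, 1.10 against 0.716 and 1.40 against 1.15). The JG4 value of sorted 1 rests on 3 cells, too few to count in the levels above. The share of all genes with such an order was not counted.

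Prrxl1, a paired-type homeodomain factor of dorsal root and trigeminal pain pathways (chromosome 14, 32599407 to 32649246, plus strand), followed the same split with exceptions. Nodose levels were 0.0493, 0.066, 0.0537 and 0.0554, and jugular levels 1.89, 2.1, 2.99 and 2.49. The jugular mean was 42.1-fold the nodose mean (log2 difference -1.66, SE 0.07), and the sorted jugular values were the higher pair. Among jugular types it ran from 3.31 ± 0.44 in JG1 (n = 3) down to 0.817 ± 0.36 in JG3 (n = 3; the 3 JG3 cells of sorted 1, too few to count here, were at 2.29), and JG4 (1.67 ± 0.39, n = 3) lay above JG3 without overlap. NG2 was the exception among nodose types, at 0.722 ± 0.30 (n = 2) with UMIs in 76.7% of 30 cells (57.7 to 90.1), and its library values overlapped those of JG3. NG3 followed at 0.202, and NG4, NG5 and NG10 were at 0.

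Pou4f1, the POU homeodomain factor also known as Brn3a that acts in somatosensory neurons (chromosome 14, 104461676 to 104467999, minus strand), was graded rather than split. Levels were 0.766, 0.819, 0.423 and 0.615 in nodose and 3.48, 3.48, 2.08 and 2.50 in jugular neurons, a ratio of 4.40 with no overlap (log2 difference -1.22, SE 0.05). JG1 stood apart at 8.16 ± 1.81 (n = 3), with UMIs in 24 of 24 cells, although its 3 cells of sorted 1, too few to count here, were at 4.05, inside the range of NG3. NG3 came second at 3.67 ± 1.02 (n = 2), above JG6 (3.04), JG5 (2.83) and JG2 (2.47), although the values of these 4 overlapped. NG1 was at 2.27 ± 1.26 (n = 3), inside the jugular range. The lowest was NG13 at 0.00913, with UMIs in 6.32% of 95 cells against 7.84% of endothelial cells, and NG6 (0.0577) lay above it without overlap.

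Isl1, a LIM homeodomain factor of sensory and sympathetic neurons (chromosome 13, 116298281 to 116309689, minus strand), was the gene of the 9 that did not separate the ganglia. Levels were 2.39, 2.64, 2.54 and 2.54 in nodose and 1.97, 1.95, 1.79 and 2.46 in jugular neurons. Sorted 2 jugular neurons reached above unsorted 1 nodose neurons, so the classes overlapped, but within each of the 4 libraries the nodose value was the higher (log2 difference 0.22, SE 0.06, not called). Some Isl1 was found in 96.6% of nodose and 99.6% of jugular cells. Its types ranged from 4.70 ± 0.49 in NG5 (n = 3) to 1.0 ± 0.083 in NG14 (n = 4), and NG5 lay above the next type, NG18 (3.9 ± 0.094, n = 4). NG14 is the largest cluster, with 259 cells.

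Isl2, the second LIM homeodomain gene of that name (chromosome 9, 55538672 to 55546180, plus strand), was higher in jugular neurons, in some of their types. Levels were 0.806, 0.662, 1.02 and 0.91 in nodose and 2.65, 2.06, 5.20 and 3.81 in jugular neurons. The ratio was 4.04 with no overlap (log2 difference -1.21, SE 0.10), and sorted jugular libraries were above unsorted ones. In the unsorted libraries alone the difference was -0.95, short of the threshold. JG3 (5.69 ± 1.06, n = 3), JG1 (5.61 ± 2.33, n = 3) and JG2 (4.17 ± 1.44, n = 4) formed the top, and JG2 lay above the first nodose type, NG3 (2.25 ± 0.20, n = 2), without overlap. Yet the 4 NG3 cells of unsorted 1, too few to count here, were at 3.16, inside the range of JG2. JG5, JG4 and JG6, at 1.34, 1.02 and 0.833, sat among the nodose types, below NG3 and NG18 (2.21 ± 0.64, n = 4).

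Runx1, a Runt domain factor that directs nociceptor diversity (chromosome 16, 92601466 to 92826149, minus strand), had levels of 0.413, 0.403, 0.424 and 0.492 in nodose and 2.66, 1.95, 1.88 and 2.14 in jugular neurons. The ratio was 4.98 (log2 difference -1.13, SE 0.06), and the classes did not overlap. Yet JG5 was at 0.0583 ± 0.05 (n = 2), with UMIs in 28.0% of 25 cells (12.1 to 49.4), 4.17% when thinned, against 11.8% of endothelial cells. The other 5 jugular types ran from 1.25 ± 0.12 in JG3 (n = 3) to 3.88 ± 1.04 in JG6 (n = 3), all above NG16, the highest nodose type (1.01 ± 0.12, n = 4), in libraries with at least 5 cells. JG1 (3.45), JG2 (2.74) and JG4 (1.58) lay apart in that order in the same libraries. The 3-cell values of sorted 1 did not keep to this: JG3 (0.942) and JG4 (1.02) fell within the range of NG16, and JG1 (2.97) within that of JG2. NG10 had 0 of 18 cells with a UMI, which allows a share of up to 16.7%. Satellite glia carried Runx1 in 29.4% of cells at a median of 9930 UMIs, so low neuronal shares are not read as expression.

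Tbx3, a T-box repressor (chromosome 5, 119670669 to 119684724, plus strand), had levels of 1.2, 1.5, 1.29 and 1.22 in nodose and of 0.112, 0.147, 0.146 and 0.185 in jugular neurons. The nodose mean was 8.81-fold the jugular mean with no overlap, and the log2 difference of 1.0 (SE 0.04) sat on the threshold. It was under it at 0.96 without unsorted 2, 0.95 without the cells with most UMIs and 0.82 when types were weighted equally. NG13 (3.16 ± 0.30, n = 4; UMIs in 95 of 95 cells), NG15 (2.82 ± 0.31, n = 4) and NG17 (2.24 ± 0.36, n = 4) led. NG5, at 0.0055, was the lowest of the 24 types, and overlapped JG2, JG3 and JG4. JG1 was the highest jugular type, at 0.747 ± 0.25 (n = 3) with UMIs in 91.7% of 24 cells (73.0 to 99.0). It overlapped NG18 and NG7. JG6 (0.285) and JG5 (0.233) also sat among the nodose types, and both overlapped NG1 (0.250). JG2, JG3 and JG4 were at 0.0141, 0.0169 and 0.0166. Endothelial cells carried Tbx3 too, in 29.4% of cells.

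Etv1, an ETS factor known from proprioceptive neurons (chromosome 12, 38779380 to 38870484, plus strand), had levels of 3.23, 4.69, 3.46 and 3.0 in nodose and of 0.324, 0.425, 0.471 and 0.753 in jugular neurons, 7.29-fold higher in nodose with no overlap (log2 difference 1.62, SE 0.10). NG13 (8.51 ± 1.25, n = 4) and NG2 (8.12 ± 3.28, n = 2) led, then NG15 (6.23 ± 1.37, n = 4), which lay above NG16 (4.33 ± 1.01, n = 4). JG3 was the jugular exception, at 3.35 ± 1.73 (n = 3) with UMIs in 73.3% of 30 cells (54.1 to 87.7), within the range of the nodose types. The other 5 jugular types were between 0.0283 (JG1) and 0.437 (JG5), at or below NG1, the lowest nodose type (0.445). Satellite glia gave Etv1 in 51.0% of cells, at a level of 0.75 ± 0.30 (n = 2).

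The 5 jugular-high genes were also counted cell by cell, which describes the cells but is no test, since these genes were picked for being higher in jugular neurons. All of Prdm12, Prrxl1, Pou4f1, Isl2 and Runx1 had a UMI in 182 of 245 jugular cells (74.3%) and in 4 of 1459 nodose cells (0.274%). In JG1 this held for 100% of cells and in JG2 for 97.1%, but in JG5, where Runx1 was nearly missing, for 24%. Nodose cells had a median of 2 of the 5 genes. NG2 stood out with a median of 4, as 19 of its 30 cells had 4 and 1 had all 5. These counts depend on depth.

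**Figure D3:**
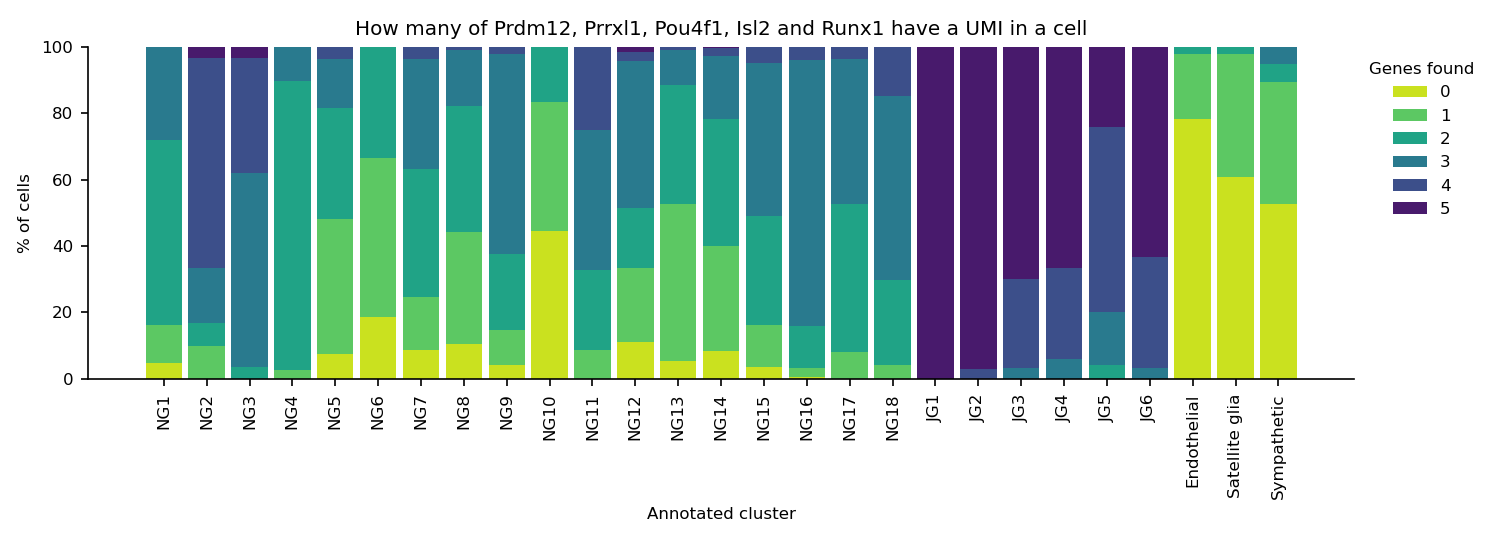
Share of cells in each annotated cluster (bars, in % of cells) that had a UMI of 0 to 5 of the genes Prdm12, Prrxl1, Pou4f1, Isl2 and Runx1 (colours). The darkest colour, all 5 genes, fills 24% to 100% of the jugular bars and at most 3.45% of any nodose bar.

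Among the nodose-high genes, Tbx3 and Etv1 ran together and Phox2a did not run with them. Over the 18 nodose types Pearson's r between log2 levels was 0.71 for Tbx3 with Etv1, -0.43 for Phox2a with Tbx3 and -0.49 for Phox2a with Etv1. Types share libraries, so r is a description. NG2 departed from the first relation, with Etv1 at 8.12 and Tbx3 at 0.16. In cells thinned to 10000 UMIs, Tbx3 was found in 32.7% of 251 nodose cells with Phox2a and 61.1% of 1190 without. Inside single types the contrast varied. It was 61.1% against 64.0% in NG8, 47.5% against 50.7% in NG14 and 50% against 52.8% in NG9. In NG1 it was 0% of 14 cells against 14.8% of 27, in NG11 0% of 49 against 7.41% of 54, and in NG6 the opposite, 33.3% of 12 against 0% of 15. NG13, NG15 and NG17, which led in Tbx3, had 2, 1 and 1 thinned cells with Phox2a.

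**Figure D4:**
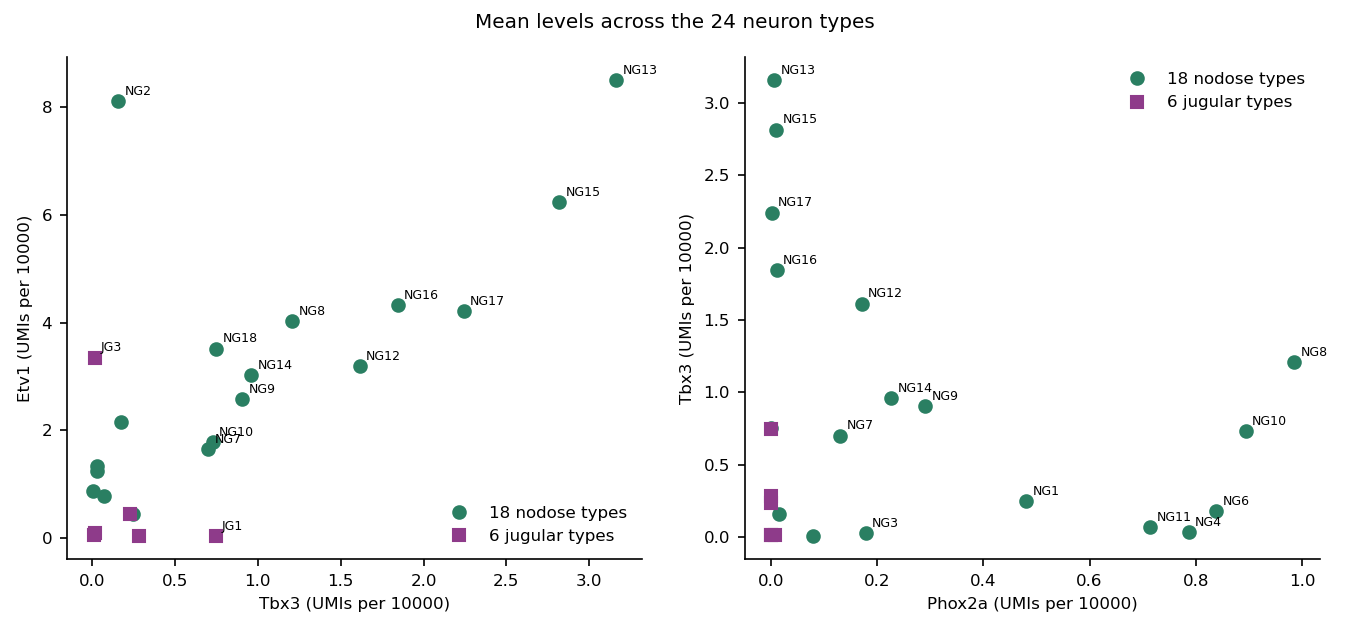
Mean levels of Tbx3 against Etv1 (left) and of Phox2a against Tbx3 (right), in UMIs per 10000, with 1 point for each of 18 nodose (circles) and 6 jugular types (squares). Etv1 tends to rise with Tbx3, and NG2 (Tbx3 0.16, Etv1 8.12), JG3 (0.0169, 3.35) and JG1 (0.747, 0.0283) are among the types off this trend. The types highest in Tbx3 lie at the left edge of the Phox2a axis.

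For each gene, the genes with the most similar pattern over the 24 neuron types were listed by r of log2(level + 1), over 8785 candidates and with no p. For Prdm12 they were Gm13425 (r = 0.98) and Ivns1abp (0.94), and for Prrxl1 they were Prdm12 (0.93) and Syt7 (0.91). Over the 18 nodose types alone the same pairs had r of -0.25, 0.41, 0.23 and 0.31, against 0.87 for Pou4f1 with Rnf219. The Prdm12 and Prrxl1 values over 24 types thus mostly restate the split between the ganglia. Pou4f1 was followed by Rnf219 (0.89) and Kcna4 (0.87), and Isl2 by Hsbp1l1 (0.91) and Nedd4l (0.90). Ivns1abp (0.85) and Syt7 (0.84) came first for Runx1. For the nodose-high genes the pairs were Tmem54 (0.89) and Chrna3 (0.88) for Tbx3, mt-Nd4l (0.82) and Pdha1 (0.81) for Etv1, and Rhbdd2 (0.80) and Arhgap6 (0.80) for Phox2a. Prrg3 (0.72) and Fbxl20 (0.69) were nearest to Isl1. Median mitochondrial shares, which mt-Nd4l is part of, were 6.82% to 8.34% in the nodose and 3.81% to 5.45% in the jugular neurons of the libraries, and their part in the Etv1 pair was not tested.

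In 2 of the 9 lists the closest gene was a neighbour on the chromosome. A gene within 1 Mb was among the closest 2 for 123 of 8527 genes with a unique position (1.44%). Gm13425 is annotated as antisense to Prdm12 (chromosome 2, 31633453 to 31640589, minus strand), covers its promoter and shares 553 bases with the gene. It was at 0.519, 0.434, 0.245 and 0.309 in the jugular libraries, with UMIs in 175 of 245 cells, and in 5 of 1459 nodose cells. As for Prdm12, the sorted jugular libraries were the lower pair, but the log2 difference was -0.21 (limma adjusted p = 0.101). The share of all genes whose pairs lay apart in this way was not counted. Rnf219 (chromosome 14, 104477536 to 104522645, minus strand) lies 9537 bases from Pou4f1, on the same strand. Its mean was 0.301 ± 0.0771 for nodose and 0.439 ± 0.107 for jugular neurons (n = 4 libraries). Tbx3os1, antisense to Tbx3 with 697 shared bases, had an r of 0.86 with it. It was named after its value was seen. Whether reads were counted by strand is not given in the sources used here, and without it reads in the shared bases cannot be told apart.

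Relatives and other regulators were read from lists of 63 transcription factor genes, of which 30 passed the filter on low values. Eya1, a placode cofactor (1.41 ± 0.446 in nodose, 0.0198 ± 0.0133 in jugular neurons, n = 4, log2 difference 1.22), was among those called higher in nodose neurons, and 0 were called lower. The median log2 difference was -0.03, against 0.01 over all genes. Of 12 tested genes listed as targets of the 9 factors, Ntrk2 was called higher in nodose neurons (2.17), and Calca (-3.96), Mrgprd (-1.43) and Scn11a (-1.17) were among those called lower. The median of the 12 was -0.64.

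Sorted and unsorted libraries were then compared within each class, 2 against 2. Sort, genotype and library batch change together and cannot be told apart. By the call rule 0 of the 8 genes tested changed in jugular neurons, where 0.425% of 8696 genes were called, and 0 of 7 in nodose neurons, where 0.428% of 8883 were. Below the fold threshold, several of the 9 differed. Jugular Prdm12 was at 2.17 and 2.13 in unsorted and 1.04 and 1.26 in sorted libraries, a log2 difference of -0.55 (SE 0.12, limma adjusted p = 0.02). Isl2 went the other way, from 2.65 and 2.06 to 5.20 and 3.81 (0.71, SE 0.17, limma adjusted p = 0.0317). At any fold, 6.67% of genes had an adjusted p under 0.05 in that fit. Without sorted 1 or sorted 2 the limma adjusted p was 0.214 or 0.0757 for Prdm12 and 0.270 or 0.0750 for Isl2, and without unsorted 2 it was 0.175 for Isl2. Pou4f1 (-0.45, limma adjusted p = 0.0831) and Prrxl1 (0.32, limma adjusted p = 0.177) missed an adjusted p under 0.05. Their sorted and unsorted values did not overlap, but the share of all genes of which this held was not counted.

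The differences were present inside jugular types. In JG1, JG2, JG3 and JG4, the types with at least 3 cells in every library, both sorted values of Prdm12 lay below both unsorted values in 4 of 4 types. In JG2, the best filled, they were 1.10 and 1.40 against 2.52 and 2.19. Isl2 lay above in 4 of 4 types (5.86 and 4.75 against 3.51 and 2.55 in JG2). Of all genes tested, 4.11% lay below in all 4 types and 3.42% above. Pou4f1 was below in 3 of 4 types and Prrxl1 above in 3 of 4, both overlapping in JG3. The share of all genes that lay apart in 3 of 4 types was not counted, so these counts are description only. JG1, JG3 and JG4 had 3 cells each in sorted 1.

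**Figure D5:**
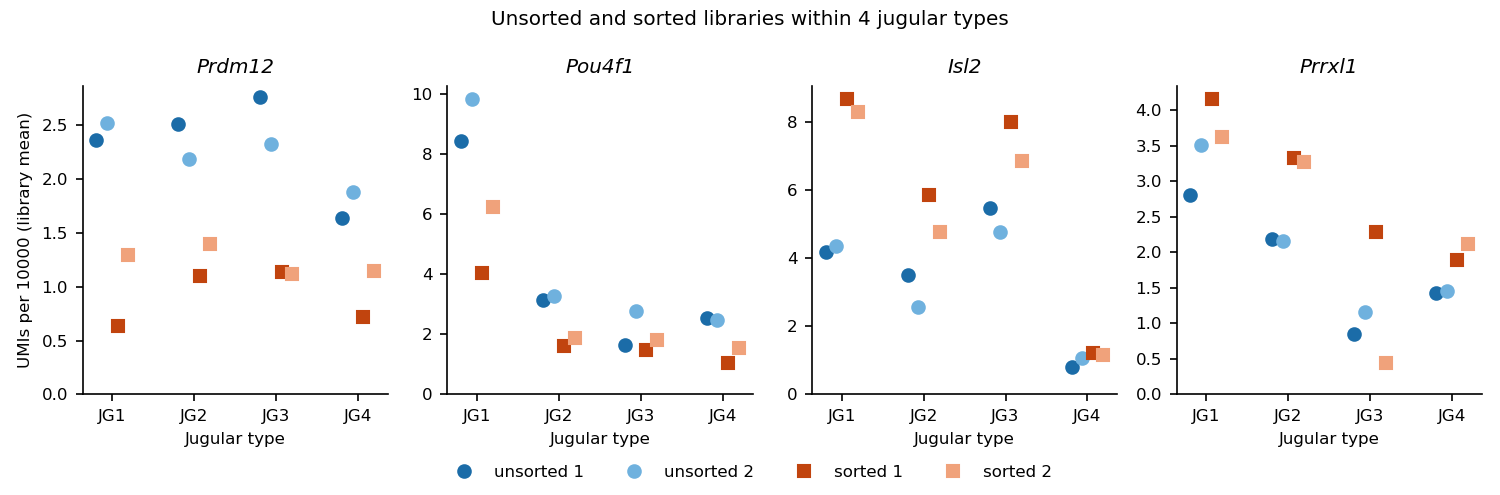
Library means of Prdm12, Pou4f1, Isl2 and Prrxl1 in UMIs per 10000 (y axes) within 4 jugular types (x axes), with circles for unsorted and squares for sorted libraries. Both squares lie below both circles for Prdm12 and above them for Isl2 in 4 of 4 types.

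In nodose neurons Phox2a was at 0.237 and 0.154 in unsorted and 0.326 and 0.443 in sorted libraries (log2 difference 0.21, SE 0.05, limma adjusted p = 0.00590). Pou4f1 was at 0.766 and 0.819 against 0.423 and 0.615 (-0.24, SE 0.06, limma adjusted p = 0.0159). Adjusted p-values under 0.05 were found for 26.7% of genes at any fold. Without sorted 1 or sorted 2 the limma adjusted p was 0.0787 or 0.137 for Phox2a and 0.245 or 0.0660 for Pou4f1. Type by type, Phox2a lay above in 5 of 15 nodose types and below in 2, Pou4f1 below in 6 and above in 0, and Isl2 above in 8 and below in 0. Of all 8883 genes, 34% lay above in at least 5 types, 26.5% below in at least 6 and 16.7% above in at least 8, so such counts were common. NG13 and NG17, which are poor in Phox2a, made up 9.04%, 8.14%, 3.01% and 4.05%, and 7.98%, 9.66%, 5.02% and 4.05%, of nodose cells. NG15, also poor in Phox2a (0.0101), went the other way, at 9.57%, 8.14%, 14.4% and 10.9%. NG16 (0.0112) was at 10.6%, 11.7%, 9.70% and 8.91%, and NG18 (0.00115) at 4.79%, 4.69%, 6.69% and 4.45%. NG11, rich in Phox2a (0.714), made up 6.38%, 5.66%, 5.69% and 13.8%. The part of these shares in the Phox2a difference was not tested. For Isl2 over all nodose neurons the difference was 0.18 (SE 0.06, limma adjusted p = 0.0564).

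Whether the gap between the ganglia itself differed between the kinds of library was tested as an interaction. Limma called 2 of 8833 genes (0.0226%), and 0 of the 9. At any fold 0.272% had an adjusted p under 0.05, and Prdm12 was among them, with a difference closer to 0 by 0.55 (SE 0.07, limma adjusted p = 0.0252) in sorted libraries on the log2(level + 1) scale. Nodose Prdm12 is near 0 on that scale, so this value restates the jugular difference of -0.55. As a ratio of jugular to nodose levels, the libraries stood at 348, 529, 372 and 733, and the sorted and unsorted ratios overlapped. These ratios rest on 26 nodose UMIs in all, too few to show whether the ratio differed. For Isl2 the interaction value was -0.53 (SE 0.10, limma adjusted p = 0.0979). Libraries also differed in glial transcripts. The summed level of 3 satellite glia markers (Apoe, Fabp7 and Sox10, 0 of them at 0) was 22.2, 20.9, 2.14 and 0.738 in nodose and 11.3, 7.45, 1.81 and 0.23 in jugular neurons. The 4 jugular markers (Wfdc2, Calca, Tac1 and Gfra3) summed to 1.05, 1.07, 2.84 and 3.39 in nodose and 33.5, 36.7, 83.5 and 44.6 in jugular neurons, with 0 of them at 0. Prdm12 and Prrxl1 were found in 0 of 51 satellite glia, and Pou4f1 and Isl2 in 3 each. The part of these transcripts in the differences was not tested.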

How the data were processed

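Single cells were captured in 10x droplets (3' chemistry, version 2), per the labels' protocols. Cell Ranger 2.1.1, Seurat and mm10 are named per the submitters' processing notes; cell filters, doublet removal and clustering are not described in those notes or the labels. The authors deposited natural log values, ln(1 + UMIs per 10000), for 17289 genes and 1825 cells, and an annotation with clusters and the mitochondrial share as a fraction. The series describes 1896 cells, 71 more than analysed here. UMI counts were read back (100% of non-zero values whole within 0.01).

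Classes follow the deposited cluster names. All deposited cells were kept, and doublets were not called. Linear values were averaged per library and class (at least 10 cells) or cluster (at least 5). Genes above 0.1 were tested with limma 3.58.1 (R 4.3.3), with a mean-variance trend, on log2(mean + 1), two-sided, Benjamini-Hochberg adjusted over all genes; folds of low genes are therefore understated. Library was a block for nodose against jugular. The fits were tested on simulated data. Intervals of shares are exact 95% (Clopper-Pearson) for counting error only, with 3 cells allowed where none was found. The 9 genes and all lists were chosen with earlier results of these data known. Named besides the 9 are the 2 most correlated genes for each and called list genes, up to 4 in each direction. Alternatives changed the pseudocount, filter, test, centring, cells, block and libraries, and, chosen after seeing the data, weighted types equally. Some items are not reported here.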

Additional observations from a re-analysis of the deposited data

Results flagged for a closer look

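The nodose minus jugular difference of Prdm12 in log2(level + 1) differed between the 2 kinds of library. It was closer to 0 by 0.55 (log2, SE 0.07, limma adjusted p = 0.0252) in the sorted libraries, since jugular Prdm12 was at 1.04 and 1.26 there and at 2.17 and 2.13 in the unsorted ones, while nodose levels were at most 0.00624 in every library. Nodose levels this near 0 make the value a restatement of the jugular sort difference (-0.55). The ratio of jugular to nodose levels, at 348, 529, 372 and 733 by library, overlapped between the sorted and unsorted libraries. That ratio rests on 26 nodose UMIs in all, too few to show whether it differed. The interaction value was between 0.47 and 0.82 in the 10 other settings tried. Its limma adjusted p was 3.71e-04 (without sorted 2) to 0.0471 (without unsorted 1) with 1 library left out, 0.00386 with types weighted equally, 0.150 with a pseudocount of 0.1, 0.351 without the filter on low values and 0.0707 without cells of high mitochondrial share. Sort, genotype and batch cannot be told apart.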

How the results depend on the processing

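Of 126 values of the 9 genes for nodose against jugular neurons under other settings, 117 kept direction and side of the threshold and 0 changed direction; Tbx3 lost its call in 6, at 0.82 to 0.99, Isl2 in 1, and Phox2a gained one in 2. The numbers of genes called moved more. A pseudocount of 0.1 gave 739 genes for nodose against jugular, 183 and 209 for sorted against unsorted nodose and jugular neurons and 9 for the interaction, and limma-voom gave 1206, 313 and 249 for the first 3. Without the filter on low values the jugular sort comparison and the interaction had 0 (2554 and 1586 at an unadjusted p under 0.05). Without cells of high mitochondrial share there were 21 and 18 in the nodose and jugular sort comparisons and 0 in the interaction by limma (1003 at an unadjusted p under 0.05), and equal weighting of types left 1 in the interaction. With 1 library left out, the counts ranged from 107 to 123 for nodose against jugular, 11 to 55 and 9 to 54 for the nodose and jugular sort comparisons (fewest without sorted 1 or sorted 2) and 2 to 5 for the interaction (4 without unsorted 1, 5 without sorted 2); a lone sorted library is then assumed to vary like the others.

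Sort differences near 0 changed sign, all of them uncalled. In nodose neurons Isl1 (0.00929) went to -0.0135 with limma-voom, -0.00891 without the cells with most UMIs, -0.057 without cells of high mitochondrial share, -0.00222 with median centring and -0.00855 with types weighted equally, and ranged from -0.0425 to 0.0611 with 1 library left out. Nodose Tbx3 (-0.0574) went to 0.0995 with limma-voom, 0.153 without cells of high mitochondrial share and 0.0413 with types weighted equally, and ranged from -0.148 to 0.0332 with 1 library left out. Nodose Runx1 went to -0.0238 with types weighted equally and Etv1 to 0.0384 without cells of high mitochondrial share. In jugular neurons Isl1 went to -0.00173 with types weighted equally; with 1 library left out it ranged from -0.085 to 0.228 and Runx1 from -0.285 to 0.0263. In the interaction Tbx3 went to 0.111 without cells of high mitochondrial share and 0.0101 with types weighted equally, and Isl1 ranged from -0.22 to 0.0955 with 1 library left out. The cause was not tested. The labels carry no replicate numbers to pair libraries by; nodose and jugular profiles were blocked by library, and without that block 112 genes were called as well. Rare types limit the rest: NG10 rests on 1 library and JG5, NG2, NG3 and NG6 on 2, and limma takes much of the spread from other genes.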

Other observations

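Relatives of Runx1 and Pou4f1 occupied particular types, and these genes were singled out after their values were seen. Runx3, the Runt factor known from proprioceptive and touch neurons, was at 2.07 in NG10 (1 library) and 1.43 ± 0.67 in NG1 (SD, n = 3 libraries), the types with Runx1 at 0 and 0.0464. It had UMIs in 18 of 18 NG10 cells and 42 of 43 NG1 cells, and in 15 of the 1643 other neurons. Runx1 had UMIs in 9 of these 61 cells, all in NG1, and in 1131 of the others. Single cells could hold both genes: all 9 also had Runx3, and 11 of the 15 other neurons with Runx3 had Runx1. Low Runx1 did not always go with Runx3: NG6, with Runx1 at 0.0277, had 0 of 27 cells with Runx3. The Runx1-poor jugular type JG5 had 0 of 25 cells with Runx3, which allows a share of up to 12.0%.

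Pou4f2, a close relative of Pou4f1, was at 0.801 ± 0.093 in JG1 (n = 3), the type highest in Pou4f1, with UMIs in 21 of 24 cells, and in 27 of the 1680 other neurons. These 27 were not spread evenly, and included 7 of 30 JG6, 12 of 70 JG2 and 4 of 30 NG2 cells. Tbx20, a T-box gene, was at 2.79 ± 0.062 in sympathetic neurons (n = 2 libraries, 18 of 19 cells), where Tbx3 was at 0.382. Etv5, the ETS relative of Etv1, was highest in JG5, at 1.27 ± 0.56 (n = 2), but was not particular to it. JG4 was at 0.835 ± 0.43 (n = 3) and NG3 at 0.835 ± 0.26 (n = 2), within that spread.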
